A study of Mus musculus with 2 samples.

Results

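The oxidative phosphorylation genes were followed through the oligodendrocyte lineage of the mouse optic nerve, in 1 single cell RNA-seq library of uninjured nerves and 1 library of nerves taken 2 weeks after optic nerve crush (ONC). Members were chosen by name and detection. Gene names had to start with mt-, Nduf, Uqcr, Cox4, Cox5, Cox6, Cox7, Cox8 or Atp5, and a gene had to be above 0 in at least 10 barcodes of both libraries together. Of 31053 gene names, 102 matched and 95 were kept, of which 13 are encoded by the mitochondrial genome and 82 by the nuclear genome. The nuclear members are 72 subunits (36 of complex I, 8 of complex III, 13 of complex IV and 15 of complex V) and 10 assembly or accessory factors, namely Ndufaf1 to Ndufaf8, Atp5s and Cox7a2l. Cox7a1, with UMIs in 12 barcodes, lay just inside the limit. Cox7b2 and Ndufa4l2 with 2 barcodes each and Cox8b with 1 lay just outside, and Cox4i2, Cox6a2, Cox8c and Atp5o.1 had no UMI.

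Both groups were Wildtype 129S1/SvlmJ mice, with males and females pooled, and each library held the cells of 5 nerves. By the design text the mice were 10 weeks old and the injured ones had received ONC at 8 weeks, whereas 56 days is the age on the labels. Both samples carry the same treatment label, so the uninjured group was taken from its title. With 1 library per condition, condition and library cannot be told apart, no test between conditions was possible, and all intervals are 95% counting intervals, which say nothing of the spread between animals.

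Oxidative phosphorylation passes electrons from NADH and succinate through complexes I, II, III and IV to oxygen, and complex V (ATP synthase) uses the resulting proton gradient to make ATP. The mitochondrial genome encodes only core membrane subunits of complexes I, III, IV and V, and all other subunits are nuclear genes whose proteins are imported, so each complex is built from the products of both genomes. Oligodendrocyte precursor cells (OPCs) and newly formed oligodendrocytes (NFOs) are thought to depend strongly on respiration, and mature myelinating oligodendrocytes to rely more on glycolysis.

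The 3 mitochondrial genes with the lowest ratios below (mt-Nd1, mt-Co3 and mt-Nd3), the one with the highest (mt-Nd4l) and mt-Nd4, which overlaps it, are shown by the last 30 bases of their coding sequence, 5′ to 3′, with the stop codon or its first base in capitals (reference mitochondrial genome, GRCm38). mt-Nd3 lies at chrM:9459-9806, mt-Nd4l at chrM:9877-10173 and mt-Nd4 at chrM:10167-11544, all on the plus strand, so that mt-Nd4l and mt-Nd4 overlap by 7 bases and are carried by 1 RNA. mt-Atp8 and mt-Atp6 likewise overlap, by 43 bases.
mt-Nd1: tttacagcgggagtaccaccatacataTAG
mt-Co3: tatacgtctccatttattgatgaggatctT
mt-Nd3: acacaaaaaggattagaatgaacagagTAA
mt-Nd4l: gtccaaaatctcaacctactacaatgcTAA
mt-Nd4: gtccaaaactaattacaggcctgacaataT
In 3 genes, mt-Co3, mt-Nd4 and mt-Cytb, the sequence ended in a single T, and the stop codon is completed by the poly(A) tail, which is also where reverse transcription of a 3′ library starts. Of the 13 genes, mt-Nd6 is the 1 encoded on the minus strand.

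For the nuclear members, 69 of 82 had a promoter window in the RefSeq table (300 bases, from 250 before to 50 after the start, GRCm38.p6). A few members that recur below are shown, with matches on either strand to the ETS family motif CCGGAAG and to the NRF1 motif in capitals: Cox8a among the members with most UMIs, Atp5k among the lowest ratios in NFOs and oligodendrocytes, and Atp5e with the highest ratio in OPCs.
Cox8a, chr19:7217567-7217866, minus strand: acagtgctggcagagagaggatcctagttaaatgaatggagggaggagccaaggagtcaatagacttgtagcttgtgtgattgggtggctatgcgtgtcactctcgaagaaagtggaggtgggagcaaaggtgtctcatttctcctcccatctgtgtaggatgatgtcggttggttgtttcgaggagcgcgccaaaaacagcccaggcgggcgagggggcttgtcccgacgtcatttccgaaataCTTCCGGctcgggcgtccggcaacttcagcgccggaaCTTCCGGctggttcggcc
Atp5k, chr5:108434350-108434649, minus strand: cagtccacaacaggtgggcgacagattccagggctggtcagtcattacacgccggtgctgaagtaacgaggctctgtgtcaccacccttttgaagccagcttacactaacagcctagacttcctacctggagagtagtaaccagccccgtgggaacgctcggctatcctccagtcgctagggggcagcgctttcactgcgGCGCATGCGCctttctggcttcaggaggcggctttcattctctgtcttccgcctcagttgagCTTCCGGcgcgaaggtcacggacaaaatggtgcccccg
Atp5e, chr2:174464052-174464351, minus strand: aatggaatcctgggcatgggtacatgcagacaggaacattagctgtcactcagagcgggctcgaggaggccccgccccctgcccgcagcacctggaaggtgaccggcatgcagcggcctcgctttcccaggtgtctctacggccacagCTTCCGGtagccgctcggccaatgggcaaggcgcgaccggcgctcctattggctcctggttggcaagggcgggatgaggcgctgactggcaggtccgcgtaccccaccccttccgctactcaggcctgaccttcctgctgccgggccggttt
Over both strands, the NRF1 motif was in 24.3% of 74 member windows and in 4.60% of all 32851 windows, and the ETS motif in 21.6% and 8.86%. For the ERR motif TCAAGGTCA the shares were 1.35% and 0.423%, and for the YY1 motif AAGATGG 14.9% and 6.34%. The median GC content was 57.5% in member windows and 52.7% in all windows. A match describes letters and not a bound factor.

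The libraries held 959 uninjured barcodes (58 OPCs, 44 NFOs and 857 oligodendrocytes by the authors' types) with 4414834 UMIs, and 410 injured barcodes (17 OPCs, 100 NFOs and 293 oligodendrocytes) with 2771797 UMIs, and no barcode was shared. Markers of OPCs, NFOs and oligodendrocytes were each highest in the type of that name, in both libraries. The paper further divides oligodendrocytes into small spidery and mature subtypes, and describes the spidery cluster as emerging after injury. The types used here do not separate these, so a change of level and a change of subtype make-up cannot be told apart. The 12 macrophage or microglia markers in sum stood at 26.5 uninjured and 337 injured UMIs per 1000000 (CPM) in oligodendrocytes, 21.2 and 813 in NFOs and 35.0 and 289 in OPCs, and 11 or 12 of them had a UMI in each injured class. The 4 endothelial markers summed to between 0 and 34 CPM in the 6 classes. The 7 astrocyte markers stood at 813 and 1406 CPM in oligodendrocytes, 1243 and 1967 in NFOs and 1115 and 910 in OPCs. The median share of Malat1, a nuclear RNA, was 5.27% in uninjured and 0.692% in injured oligodendrocytes, and the injured oligodendrocyte UMIs were concentrated in few barcodes, with 67 barcodes of 16000 or more UMIs holding 78.4% of them. These values differed between the libraries, and their part in the results below was not tested except where a value is given. The authors also removed cells with more than 20% mitochondrial reads, so the highest mitochondrial shares were cut off in both libraries.

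The 13 mitochondrially encoded genes took a smaller share of all UMIs in the injured library in each of the 3 types, whereas the 72 nuclear-encoded subunits did not move with them. In oligodendrocytes the mitochondrially encoded share was 7.27% (7.25 to 7.30) uninjured and 4.02% (3.99 to 4.04) injured, a ratio of 0.552 (0.548 to 0.556). In NFOs it was 8.92% (8.73 to 9.11) uninjured and 3.59% (3.53 to 3.65) injured, a ratio of 0.402 (0.391 to 0.414). In OPCs, with only 17 injured barcodes, it was 6.26% uninjured and 3.57% injured, a ratio of 0.571 (0.551 to 0.591). NFOs thus had the highest mitochondrial share of the 3 types in the uninjured library and the lowest ratio. The nuclear-encoded subunit share was 1.70% and 1.66% in oligodendrocytes, a ratio of 0.977 (0.965 to 0.989). It was 2.79% and 2.88% in NFOs, where the interval of the ratio held 1 (1.03, 0.990 to 1.08). In OPCs it was 1.69% and 2.44%, a ratio of 1.44 (1.37 to 1.52).

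**Figure D1:**
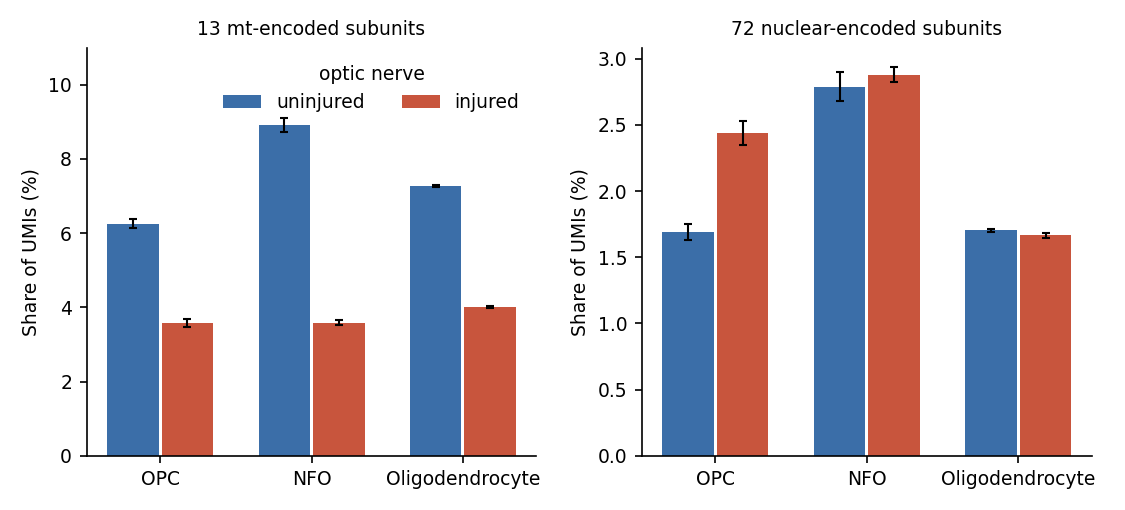
Share of all UMIs (%) taken by the 13 mt-encoded subunits (left) and the 72 nuclear-encoded subunits (right) in each type, uninjured in blue and injured in red, with 95% counting intervals and 1 library per condition. The mt-encoded share is lower in the injured library in all 3 types, from 8.92% to 3.59% in NFOs, while the nuclear-encoded share is higher in injured OPCs only, with the NFO interval of the ratio holding 1.

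The pooled balance between the 2 genomes was lower in the injured library in every type. For each UMI of a nuclear-encoded subunit there were 4.27 mitochondrially encoded UMIs in uninjured and 2.41 in injured oligodendrocytes, 3.20 and 1.25 in NFOs, and 3.71 and 1.46 in OPCs. The lower balance was present on both sides of a Malat1 limit. In NFOs with at least 0.5% Malat1 the values were 3.27 and 1.3, and in NFOs with less they were 3.10 and 1.18. Oligodendrocytes gave 4.28 and 2.36 above this limit, and 3.98 and 3.11 below it. Depth changed it in oligodendrocytes. At 1000 to 8000 UMIs they had 7.89 (7.77 to 8.01) uninjured and 10.3 (9.91 to 10.8) injured mitochondrial UMIs per nuclear-encoded UMI, the opposite direction. By band the balance was lower in the injured library under 1000 UMIs (8.70 and 3.51), at 1000 to 2000 (9.27 and 5.25) and at 16000 or more (2.76 and 1.75), and higher at 2000 to 4000 (9.78 and 10.8) and 4000 to 8000 (6.56 and 14.1), with 2.92 (2.89 to 2.95) and 3.01 (2.89 to 3.14) at 8000 to 16000. In NFOs it stayed lower at 1000 to 8000 UMIs, with 3.99 and 1.58, and in OPCs it was 3.57 (3.42 to 3.73) and 3.07 (2.77 to 3.41). Single barcodes spread widely around these sums. The mitochondrial share of a barcode ran from 1.73% to 18.7% (median 9.46%) in uninjured and from 0% to 19.3% (median 3.10%) in injured NFOs, so the 2 groups of barcodes overlapped. At 15% or more, close to the limit the authors set, were 27.3% of uninjured and 4% of injured NFO barcodes.

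The direction of the mitochondrially encoded share differed between depths in oligodendrocytes, and in NFOs it did not. Within bands of UMIs per barcode, the injured over uninjured ratio of the mitochondrially encoded share in oligodendrocytes was 0.791 under 1000 UMIs, 0.919 at 1000 to 2000, 1.31 at 2000 to 4000, 1.24 at 4000 to 8000, 0.757 at 8000 to 16000 and 0.522 at 16000 or more. The pooled drop was therefore reversed in both bands from 2000 to 8000 UMIs, where the shares were 9.27% and 12.2%, then 9.14% and 11.3%. These bands held 219 and 133 uninjured but only 28 and 17 injured barcodes, with 3.56% and 3.75% of the injured oligodendrocyte UMIs. The nuclear-encoded share ran the other way at the shallow end. It was 0.823% uninjured and 1.61% injured under 1000 UMIs (ratio 1.96), but 1.39% and 0.801% at 4000 to 8000 (ratio 0.575) and 2.13% and 1.75% at 16000 or more (ratio 0.823). Of the injured oligodendrocyte barcodes under 1000 UMIs, 75.9% held under 0.5% Malat1, against 12.1% of the uninjured ones. In NFOs, by contrast, the mitochondrially encoded ratio was 0.391 under 1000 UMIs and 0.395 at 1000 to 2000, and the share was lower in the injured library in all 5 bands that both libraries filled (10.1% and 5.25% at 2000 to 4000, 8.19% and 5.37% at 4000 to 8000), the deepest of which held 1 injured barcode. The NFO nuclear-encoded share, however, changed direction with depth. Its ratio was 1.06 (0.924 to 1.23) under 1000 UMIs and 0.839 (0.765 to 0.921) at 1000 to 2000. The shares were 2.10% and 2.65% at 2000 to 4000 UMIs, and 1.69% and 3.72% at 4000 to 8000 from 4 and 9 barcodes. At 8000 to 16000 they were 3.65% and 2.45% from 2 and 1 barcodes. In OPCs the pooled drop of the mitochondrially encoded share was absent at 1000 to 8000 UMIs. There the share was 6.18% (6.06 to 6.31) in 43 uninjured and 6.16% (5.85 to 6.48) in 8 injured barcodes.

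**Figure D2:**
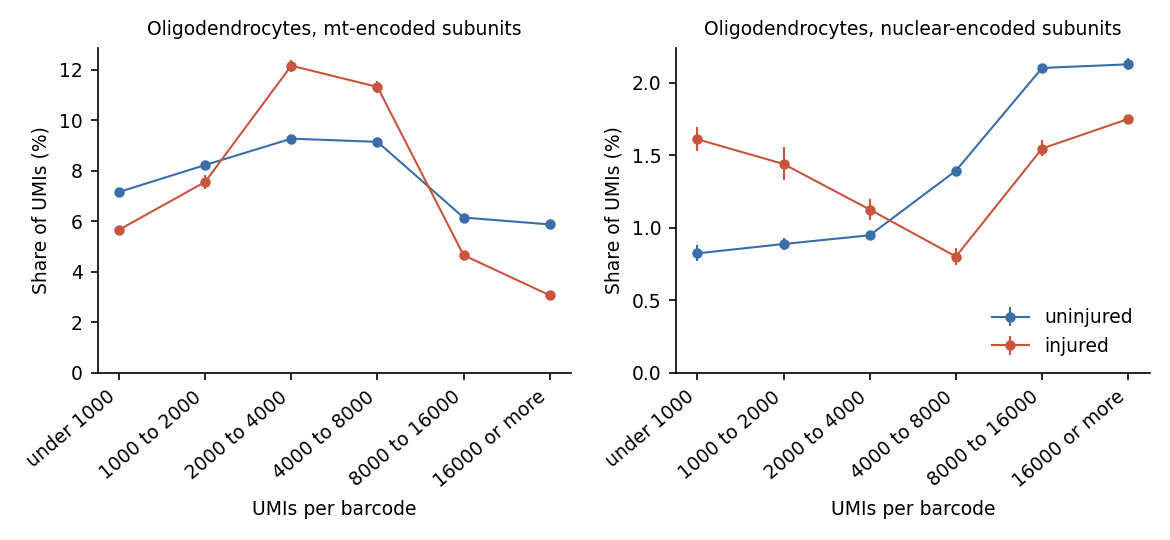
Share of UMIs (%) from mt-encoded (left) and nuclear-encoded subunits (right) in oligodendrocytes against UMIs per barcode in 6 bands, uninjured in blue and injured in red, with 95% counting intervals. The lines cross in both panels: the injured mt-encoded share is higher only between 2000 and 8000 UMIs, and the injured nuclear-encoded share is higher only below 4000 UMIs.

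The mitochondrial genes did not fall together. In oligodendrocytes mt-Nd3, a small core subunit of complex I, had 2006 CPM uninjured and 569 CPM injured, a ratio of 0.284 (0.267 to 0.301). In NFOs it had 2433 and 415 CPM, a ratio of 0.171 (0.138 to 0.211), and in OPCs 1488 and 442 CPM, a ratio of 0.297 (0.216 to 0.402). In every type it was among the 3 lowest ratios, together with mt-Nd1, also of complex I (0.372 in oligodendrocytes, 0.179 in NFOs, 0.294 in OPCs), and mt-Co3, a core subunit of complex IV (0.368, 0.271 and 0.397). At the other end stood mt-Nd4l, another core subunit of complex I and the next protein-coding gene after mt-Nd3. It had 628 CPM uninjured and 1230 CPM injured in oligodendrocytes, a ratio of 1.96 (1.86 to 2.07). The ratio was 1.5 (1.17 to 1.95) in NFOs and 1.87 (1.43 to 2.46) in OPCs, which made mt-Nd4l the only mitochondrial gene past 1.5-fold higher in any type among those with at least 50 UMIs. In NFOs it fell below 1.5-fold, though not below 1, when the totals were scaled in any of 3 other ways.

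Past a ratio of 1.5 in either direction, among genes with at least 50 summed UMIs, 1 of 13 mitochondrial genes was higher and 7 were lower in oligodendrocytes, where 15.6% of all 8591 genes were higher and 12.0% lower. In NFOs 1 of 12 was higher and 9 were lower (27.8% higher and 10.9% lower of 1695 genes). In OPCs 1 of 12 was higher and 7 were lower (30.8% higher and 14.7% lower of 993 genes). The median ratio of the mitochondrial genes was 0.651 in oligodendrocytes, 0.433 in NFOs and 0.613 in OPCs, against 1.03, 1.15 and 1.18 over all genes tested. On the log2 scale the median of all genes stood at 0.20 in NFOs and 0.24 in OPCs. Past 2-fold, 4 of 13 mitochondrial genes were lower in oligodendrocytes (4.06% of all genes), 8 of 12 in NFOs (4.01%) and 4 of 12 in OPCs (6.45%), and none was higher (5.98%, 13.3% and 10.3%). None of the mitochondrial ratios crossed 1 when divided by that median or under the other 2 scalings.

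The other mitochondrial genes kept between these ends. mt-Nd4, which is carried by the same RNA as mt-Nd4l, had 3599 and 4307 CPM in oligodendrocytes (ratio 1.20, 1.17 to 1.23), 5014 and 3672 in NFOs (0.732, 0.659 to 0.815) and 3467 and 3359 in OPCs (0.969, 0.851 to 1.10). mt-Atp8, the short reading frame ahead of mt-Atp6, had ratios of 0.915, 0.885 and 1.25 in oligodendrocytes, NFOs and OPCs. For mt-Atp6, a channel subunit of ATP synthase and the most abundant member of all, they were 0.471, 0.377 and 0.529. mt-Co1 and mt-Co2, the catalytic core of complex IV, had ratios of 0.651 and 0.526 in oligodendrocytes and 0.497 and 0.419 in NFOs. mt-Cytb of complex III had 0.686 and 0.447, mt-Nd2 had 0.510 and 0.322, and mt-Nd5 had 0.847 and 0.523. mt-Nd6, the gene on the other strand, was rare (48.7 CPM uninjured and 62.5 CPM injured in oligodendrocytes) and had under 50 UMIs in NFOs and OPCs.

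**Figure D3:**
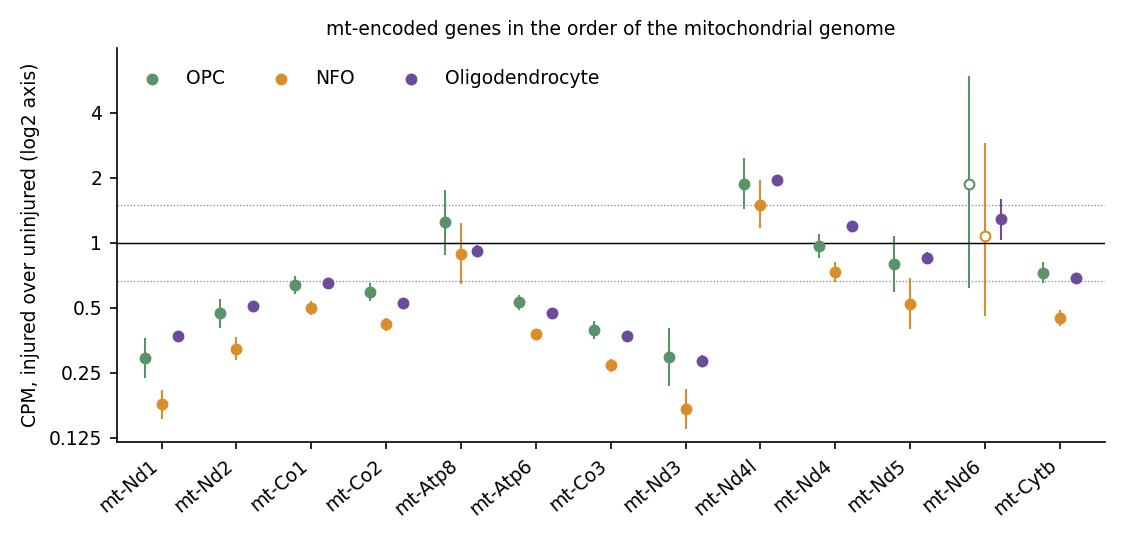
Ratio of CPM, injured over uninjured, on a log2 axis for the 13 mt-encoded genes in genome order in OPCs (green), NFOs (orange) and oligodendrocytes (purple), with 95% counting intervals; open circles have under 50 UMIs and dotted lines mark 1.5-fold. The 3 types trace the same shape, lowest at mt-Nd1, mt-Co3 and mt-Nd3 and highest at mt-Nd4l, with the NFO values below the others.

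The same shape in 3 types was clearest in ratios taken within a class, which do not depend on the total. The pair below, mt-Nd3 and mt-Nd4l, was chosen after seeing these data, from the 2 ends of the ratios above. Its values by class, band and barcode therefore describe these libraries and are no independent support. In the uninjured library there were 3.19 (3.06 to 3.34) mt-Nd3 UMIs per mt-Nd4l UMI in oligodendrocytes, 3.09 (2.37 to 4.08) in NFOs and 2.60 (2.05 to 3.32) in OPCs. In the injured library there were 0.462 (0.433 to 0.494), 0.352 (0.289 to 0.426) and 0.413 (0.293 to 0.574). The types lay close to each other within a library, and no interval of 1 library reached those of the other. Unlike the summed shares, this ratio held in every depth band of the oligodendrocytes, from 2.70 to 3.65 uninjured and from 0.358 to 0.504 injured. Within single bands, mt-Nd3 itself was lower in the injured library in all 6 (ratios 0.281 to 0.581), and mt-Nd4l was higher in all 6 (1.90 to 5.92), including the bands where the whole mitochondrial share was higher.

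Counted barcode by barcode, the same UMIs gave the same direction. Of oligodendrocyte barcodes with at least 5 UMIs of the pair, 518 of 546 uninjured ones (94.9%, 92.7 to 96.6) held more mt-Nd3 than mt-Nd4l, and 3 of 146 injured ones did (2.05%, 0.426 to 5.89). The counts were 23 of 23 and 3 of 35 in NFOs, and 21 of 27 and 1 of 13 in OPCs. Barcodes of 1 library share their preparation, so these counts describe 2 libraries and not 2 groups of animals.

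**Figure D4:**
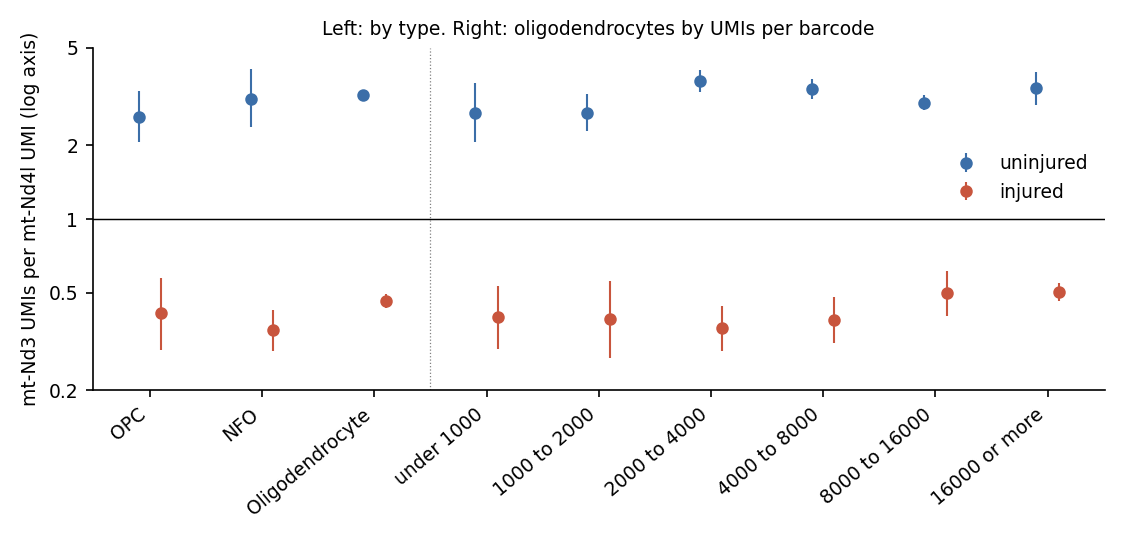
mt-Nd3 UMIs per mt-Nd4l UMI on a log axis, by type (left of the dotted line) and in 6 bands of UMIs per barcode within oligodendrocytes (right), uninjured in blue and injured in red, with 95% counting intervals. All 9 uninjured values lie between 2.60 and 3.65 and all 9 injured values between 0.352 and 0.504. The pair was chosen after seeing these data.

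Other pairs within the mitochondrial RNAs moved as well. mt-Nd4l per mt-Nd4, 2 reading frames of 1 RNA, was 0.175 uninjured and 0.286 injured in oligodendrocytes, 0.157 and 0.321 in NFOs, and 0.165 and 0.319 in OPCs. mt-Atp8 per mt-Atp6, the other such pair, was 0.0384 and 0.0745 in oligodendrocytes, 0.0263 and 0.0616 in NFOs, and 0.0309 and 0.0728 in OPCs. In both pairs the upstream reading frame, which lies farther from the poly(A) tail, took the larger part in the injured library in all 3 types. By depth band in oligodendrocytes, mt-Nd4l per mt-Nd4 ran from 0.161 to 0.201 uninjured and from 0.276 to 0.348 injured. For mt-Atp8 per mt-Atp6 the intervals overlapped under 1000 UMIs, at 0.0652 (0.0532 to 0.0792) and 0.0790 (0.0622 to 0.0992), and at 1000 to 2000, at 0.0552 (0.0477 to 0.0635) and 0.0750 (0.0555 to 0.0995). mt-Co3 per mt-Co1, on separate RNAs of 1 complex, was 1.38 and 0.779 in oligodendrocytes and 1.43 and 0.781 in NFOs. As parts of all mitochondrial UMIs of oligodendrocytes, mt-Nd4l went from 0.864% to 3.06%, mt-Nd4 from 4.95% to 10.7% and mt-Co3 from 19.9% to 13.3%.

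Nuclear-encoded subunits moved little in oligodendrocytes. Of 71 subunits with at least 50 UMIs, 1 was past 1.5-fold higher and 0 past 1.5-fold lower, beside the 15.6% and 12.0% of all genes given above, and the ratios ran from 0.670 to 1.93 with a median of 0.971. Dividing by the UMIs outside the 50 most abundant and all mitochondrial genes gave 1 higher and 4 lower. The 1 subunit was Ndufv3, an accessory subunit of the NADH-binding arm of complex I, with 92.8 CPM uninjured and 179 CPM injured (1.93, 1.68 to 2.23). Its ratio was above 1 in all 6 depth bands, from 1.09 at 4000 to 8000 UMIs to 9.21 under 1000 UMIs, where it rested on 3 and 23 UMIs. Next came Ndufaf1, a complex I assembly factor (1.49, 0.920 to 2.41), Ndufc1 of complex I (1.27, 1.13 to 1.43), Uqcrfs1, the Rieske iron-sulfur protein of complex III (1.27, 1.09 to 1.47), and Atp5e, the epsilon subunit of ATP synthase (1.24, 1.13 to 1.35). The lowest were Ndufa12 and Ndufa9 of complex I (0.670 and 0.692), Atp5b, the catalytic beta subunit of ATP synthase (0.707, from 369 to 261 CPM), Atp5k (0.711) and Cox6a1 of complex IV (0.724).

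Depth changed these values too. In the 70 subunits measured at 4000 to 8000 UMIs, 46 were past 1.5-fold lower and 0 higher (31.2% lower and 21.6% higher over all genes in that band). The injured side of this band was 17 barcodes. At 16000 or more, 6 of 70 were lower and 1 was higher (10.7% and 26.7%), with a median ratio of 0.816 against 1.11 over all genes. At 8000 to 16000, also with 17 injured barcodes, 22 of 70 were lower and 0 higher (18.6% and 22%). At 2000 to 4000, 13 of 60 were higher and 7 lower (15.7% and 30.2%). At 1000 to 2000, 8 of 15 were higher and 0 lower (25.5% and 42.8%). Under 1000 UMIs only 11 subunits could be compared, of which 10 were higher and 0 lower (41.2% and 42.3%). The near-even pooled level of the nuclear-encoded subunits was thus a sum of bands with opposite directions.

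NFOs gave a like picture with fewer UMIs. Of 69 subunits, 2 were higher and 4 lower (27.8% and 10.9% of all genes), with a median of 1.04 against 1.15 over all genes. At 1000 to 8000 UMIs the direction was another, with 14 of 49 higher and 0 lower (35.2% and 9.87% of all genes) and a share ratio of 1.29 (1.22 to 1.37). Divided by that median of all genes, 1 was higher and 9 were lower. The lowest was Atp5k, the e subunit of ATP synthase, with 648 CPM uninjured and 361 CPM injured (0.557, 0.407 to 0.769). After it came Ndufb3 (0.607), Atp5o (0.649), Ndufv1 (0.654) and Ndufb4 (0.688), of which only Atp5k kept clear of 1 with its interval. The highest were Ndufs3 (1.78, 0.880 to 4.09), Ndufaf2 (1.66), Atp5g1 (1.57, 1.08 to 2.36), Cox5a (1.46) and Ndufv2 (1.45). The deepest uninjured NFO barcode alone held 14.2% of the class, with a nuclear-encoded share of 3.90%. Without the deepest barcode of each class 10 of 67 subunits were higher and 3 lower (28.5% and 10.3% of all genes), so the NFO counts rested on single barcodes.

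In OPCs 20 of 54 subunits were higher, not far from the 30.8% of all genes, and 1 was lower, beside 14.7% of all genes. The median ratio was 1.46 against 1.18 over all genes. Dividing by the median of all genes left 10 higher and 2 lower. Leading were Atp5e with 304 CPM uninjured and 782 CPM injured (2.58, 1.82 to 3.69), Uqcr11 of complex III with 257 and 621 (2.42), Atp5g2, a c subunit of the ATP synthase rotor, with 327 and 782 (2.39), Ndufa11 with 152 and 323 (2.13) and Cox5a with 175 and 357 (2.04). The smallest ratios were those of Ndufs7 (0.607), Cox4i1 (0.687, 0.481 to 0.971), Ndufc2 (0.821), Ndufb3 (0.940) and Atp5k (0.963). The median depth was 2290 UMIs in uninjured and 4120 in injured OPC barcodes, and in the uninjured ones the nuclear-encoded share was 0.603% under 1000 UMIs and 2.40% at 4000 to 8000. Between 1000 and 8000 UMIs it was 1.73% uninjured and 2.00% injured, from 43 and 8 barcodes. Of the injured OPC UMIs, 6 barcodes at 8000 to 16000 UMIs held 63.7% and 1 deeper barcode held 14.4%. In the uninjured library 1 OPC barcode passed 8000 UMIs, with 7.40% of the class.

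**Figure D5:**
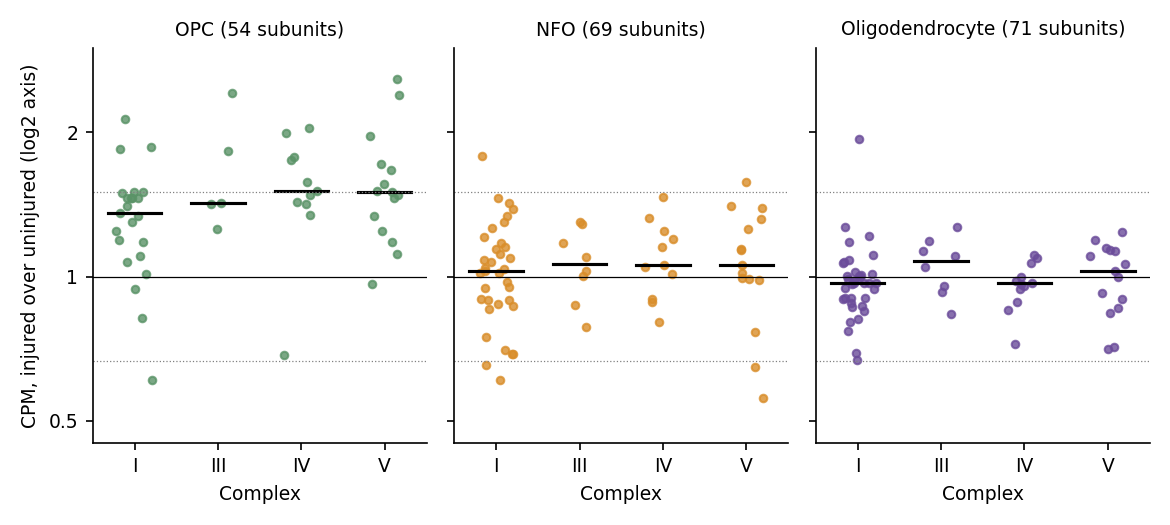
Ratio of CPM, injured over uninjured, on a log2 axis for each nuclear-encoded subunit with at least 50 UMIs, by complex, in OPCs, NFOs and oligodendrocytes; black bars are medians and dotted lines mark 1.5-fold. Subunits of all 4 complexes sit above 1 in OPCs by their medians and near 1 in NFOs and oligodendrocytes. Past 1.5-fold lie 6 subunits in NFOs and 1 in oligodendrocytes, Ndufv3 at 1.93.

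By complex, the nuclear-encoded sums of oligodendrocytes had ratios of 0.973 for complex I, 1.04 for complex III, 0.958 for complex IV and 0.979 for complex V. In NFOs they were 0.998, 1.05, 1.06 and 1.04, and in OPCs 1.3, 1.76, 1.46 and 1.54. The mitochondrially encoded sums of the same complexes were lower in each case, at 0.715, 0.686, 0.499 and 0.488 in oligodendrocytes and 0.441, 0.447, 0.381 and 0.390 in NFOs. Complexes IV and V had lower mitochondrially encoded ratios than complexes I and III in each type, though complex III has 1 such gene, mt-Cytb. The complex I sum joined mt-Nd1 and mt-Nd3, among the lowest ratios, with mt-Nd4l, the highest. Intervals overlapped between III (0.410 to 0.488) and V (0.369 to 0.413) in NFOs. In OPCs those of I (0.577 to 0.671) and V (0.511 to 0.593) overlapped.

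The 8 nuclear members with most UMIs were Cox4i1, Cox7c, Cox6c, Cox8a, Atp5h, Ndufa4, Cox7a2 and Ndufb9, 5 of which are classical complex IV subunits. A 3′ library is meant to count molecules from their 3′ ends, so these levels were compared between genes without division by length. Whether every UMI came from a 3′ end was not tested. mt-Nd4l and mt-Atp8 had UMIs although another reading frame follows on their RNA. In oligodendrocytes Cox4i1 had 779 and 665 CPM (0.853), Cox7c 675 and 634 CPM (0.940), Cox6c 607 and 593 CPM (0.977) and Cox8a 501 and 555 CPM (1.11). Atp5h, the d subunit of ATP synthase, had 502 and 432 CPM (0.860). Ndufa4, Cox7a2 and Ndufb9 had ratios of 0.955, 0.970 and 0.989. None of the 8 was past 1.5-fold in oligodendrocytes or NFOs. In OPCs Cox7c (1.77), Cox7a2 (1.75) and Cox6c (1.51) were past it, where 30.8% of all genes were higher. In oligodendrocytes all 8 were far below mt-Atp6 at 16400 and 7730 CPM. Of the nuclear members 17 share at least 98 of their last 400 bases, at 98% identity or more, with another annotated gene or pseudogene, Cox7c, Atp5h, Uqcr11, Atp5g1, Atp5g2, Ndufs3, Ndufa12 and Atp5o among them, so their counts are uncertain to that extent.

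Cox4i1, Cox6a1 and Cox8a carried nearly all UMIs of their isoform groups, with the muscle or lung forms Cox4i2 and Cox6a2 at 0 and Cox8b at 1 UMI. Cox6b2, known as the testis form, held 4.72% (3.59 to 6.09) of Cox6b UMIs in uninjured and 4.30% (2.92 to 6.08) in injured oligodendrocytes, and 1 to 3 UMIs in each of the other classes. Among the 3 genes for the c subunit of ATP synthase, Atp5g2 held 45.9% (44.0 to 47.7) of the UMIs in uninjured and 48.1% (45.6 to 50.5) in injured oligodendrocytes, and 51.4% and 50.6% in NFOs. Atp5g1 held 34.5% and 34.8% in oligodendrocytes, and Atp5g3 19.6% and 17.2%. Cox7a2l, a factor of respiratory supercomplexes, held 30.0% and 27.9% of the Cox7a group in oligodendrocytes and 22.5% in NFOs of both libraries. Ndufa4l2 had 1 UMI in each library, beside 1523 and 807 of Ndufa4 in oligodendrocytes.

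Among types, the pooled share of the nuclear-encoded subunits was highest in NFOs. It was 1.65-fold that of OPCs (1.57 to 1.74) uninjured and 1.18-fold (1.13 to 1.23) injured. At 1000 to 8000 UMIs it was 2.42% in NFOs and 1.73% in OPCs uninjured, and 3.12% and 2.00% injured. Single bands could reverse this order. Uninjured at 4000 to 8000 UMIs, 4 NFO barcodes had 1.69% and 14 OPC barcodes 2.40%. Injured at 8000 to 16000, 1 NFO barcode had 2.45% and 6 OPC barcodes 2.62%, with overlapping intervals. Against oligodendrocytes, the uninjured NFO share was 1.64-fold (1.57 to 1.70). There 39 of 71 subunits were past 1.5-fold higher and 1 lower, where 30.1% of all genes were higher and 32.9% lower. The median ratio was 1.54, against 0.999 over all genes. In the injured library the share was 1.73-fold (1.69 to 1.77), with 45 of 70 higher and 0 lower (26.2% and 28.5% of all genes), and a median of 1.70 against 0.998. At 1000 to 8000 UMIs the share was 2.10-fold and 2.96-fold. Atp5e stood at 2.86-fold uninjured and 2.62-fold injured, Cox8a at 2.59 and 2.10, and Ndufa4 at 2.46 and 2.60. Cox4i1 stood at 1.27 and 1.31. Mitochondrially encoded genes did not share this order. Their NFO over oligodendrocyte ratio was 1.23 (1.20 to 1.25) uninjured and 0.893 (0.877 to 0.910) injured, and at 1000 to 8000 UMIs it was 1.06 and 0.453. Both libraries thus gave NFOs a higher share of nuclear-encoded subunits than oligodendrocytes, but the pooled mitochondrially encoded order changed sides. In uninjured barcodes under 0.5% Malat1, which were 63.6% of NFOs and 5.60% of oligodendrocytes, the mitochondrially encoded share was 10.8% (10.5 to 11.2) in NFOs and 11.1% (10.8 to 11.3) in oligodendrocytes, so the higher uninjured NFO share was not seen there. At 0.5% or more it was 8.00% (7.78 to 8.22) and 7.21% (7.18 to 7.23). The uninjured nuclear-encoded share was higher in NFOs on both sides of this limit, and higher below it in both types. Under 0.5% Malat1 it was 3.501% (3.294 to 3.718) in NFOs and 2.781% (2.659 to 2.907) in oligodendrocytes. With at least 0.5% it was 2.448% (2.328 to 2.572) and 1.685% (1.673 to 1.698). The pooled 1.64-fold joins both sides, and how far it rests on the differing Malat1 make-up was not tested. Both types of a library share its preparation. In the pooled sums OPCs were near oligodendrocytes in the uninjured library, with 4 of 71 nuclear-encoded subunits past 1.5-fold higher and 6 lower (31.0% and 27.5% of all genes). In the injured library 27 of 70 were higher and 3 lower (32.3% and 29.8%). At 1000 to 8000 UMIs the nuclear-encoded share was higher in OPCs in both libraries. It was 1.73% (1.66 to 1.80) against 1.15% (1.13 to 1.17) in uninjured oligodendrocytes. In the injured library it was 2.00% (1.83 to 2.19), from 8 OPC barcodes, against 1.05% (1.01 to 1.10).

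The median number of nuclear-encoded subunits seen in 1 barcode was 27 of 72 in uninjured and 24.5 in injured NFOs, 20 and 15 in oligodendrocytes, and 13 and 57 in OPCs. NFOs thus showed more subunits than oligodendrocytes, at a median depth of 1260 against 3060 UMIs uninjured and 1258 against 1268 injured. Thinned to 500 UMIs per barcode, with 2 uninjured OPC, 2 uninjured NFO and 19 uninjured oligodendrocyte barcodes left out as shallower, it was 12 and 13 in NFOs, 5 and 6 in oligodendrocytes, and 4.5 and 8 in OPCs. In the thinned barcodes mt-Nd3 was seen in 57.5% of uninjured and 27.6% of injured oligodendrocytes, and mt-Nd4l in 30.2% and 52.6%. No type present here lacks these genes, so the level given by free RNA could not be read.

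Genes around the pathway were compared in oligodendrocytes by the same 1.5-fold rule, beside the 15.6% and 12.0% of all genes. Of complex II and cytochrome c, 1 of 6 was higher (Sdhb, the iron-sulfur subunit of complex II, 1.52) and 0 were lower. Of 15 citric acid cycle genes with at least 50 UMIs, none was past the limit in either direction. Among the assembly factors outside the name rule 3 of 31 were higher (Sdhaf4 2.39, Timmdc1 1.85, Sdhaf3 1.52) and 1 was lower (Cox20 0.585). Genes for transcription and upkeep of mitochondrial DNA and its nuclear regulators were rare, with 376 CPM uninjured and 339 CPM injured in sum. Of these, 3 of 16 were higher (Esrra 1.74, Gabpa 1.58, Twnk 1.52) and 4 were lower, namely Polg2 (0.377) and Polg (0.555), subunits of the mitochondrial DNA polymerase, Polrmt, the mitochondrial RNA polymerase (0.567), and Pprc1 (0.655). These values rested on few UMIs, the most being 64 and 56 for Gabpa. Of carriers and pores, 0 of 10 were higher and 1 was lower (Phb, 0.429, 0.330 to 0.550).

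The turnover list, chosen like the others with earlier results of these data known, had the highest summed ratio of these lists in oligodendrocytes. Sqstm1, an autophagy receptor, had 113 CPM uninjured and 282 CPM injured (2.5, 2.22 to 2.82), and the mitophagy receptors Bnip3 and Bnip3l had 68.7 and 155 CPM (2.26, 1.93 to 2.65) and 379 and 823 CPM (2.2, 2.03 to 2.33). Pink1, the kinase that marks damaged mitochondria, had 123 and 79.0 CPM (0.643, 0.540 to 0.763). With 3 of 6 higher and 1 lower, the list's summed ratio was 1.81 (1.73 to 1.89), from 969 to 1752 CPM, of which Bnip3l was the 379 and 823 CPM above. In NFOs the summed ratio was 1.08 (0.822 to 1.44), with Sqstm1 the 1 of 3 measured genes past the limit (1.61, 0.753 to 3.93), where 27.8% of all genes were higher. In the other lists of NFOs 2 of 4 citric acid cycle genes were higher, Idh3a (2.94, from 5 and 55 UMIs) and Mdh2 (1.83), as were 2 of 3 genes of complex II and cytochrome c, Cycs and Cyc1 (1.67 and 1.65), and 2 of 9 carriers and pores, Vdac1 (1.94) and Slc25a3 (1.77). Of 4 assembly factors 2 were lower, Cox14 (0.567) and Uqcc2 (0.606), where 10.9% of all genes were. In OPCs, where 30.8% of all genes were higher, the members past the limit were Mdh2 (2.13), Map1lc3b (1.70) and Sdhb (1.51), each the 1 gene of its list with 50 UMIs, and Vdac1 (1.96), 1 of 7 carriers and pores.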

How the data were processed

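Single cell RNA-seq (10x Chromium, v2 reagents) was done on 2 libraries. The sources name Cell Ranger 1.3, bcl2fastq 2.17.1.14 and Seurat 4.0.3 and the mm10 build. The authors left out cells under 200 genes or over 20% mitochondrial reads and limited total UMIs against doublets. They deposited natural log values of depth-scaled counts for oligodendrocyte lineage cells, with the type of each. The paper states that cells were subsampled to equal numbers per condition, so these barcodes need not be all lineage cells captured. A table of both libraries held the same values and was not used. UMIs were recovered by dividing the values, out of the log, by each barcode's smallest. They were whole within 0.001 in 100% of 1369 barcodes. 2 gene names occur more than once.

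UMIs were summed per type and library. Shares and CPM have exact Poisson intervals, ratios exact conditional and shares of barcodes exact binomial ones (95%), covering counting error only. The calculations were tested on simulated independent counts. These lack the clustering of UMIs in few barcodes, so that was not covered. Ratios needed at least 50 summed UMIs, and past 1.5-fold was used in place of a test. Scrublet marked 12 uninjured and 3 injured barcodes as doublets, which were kept in the main values. Gene positions came from GENCODE vM21, with GRCm38 coordinates counted from 1, and 94 of 95 members had 1 annotation. Copies of 3′ ends were found with BLAST 2.17.0 (at least 98% identity over at least 98 bases of the last 400). scanpy 1.11.5, pandas 2.3.3, scipy 1.17.1 and numpy 2.4.6 ran under Python 3.11.15. Medians over all genes include genes without a UMI in 1 class.

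Named were all mitochondrial genes, the 5 largest and 5 smallest ratios of nuclear members per type, the 8 nuclear members with most UMIs, the isoform groups, members at the 10 barcode limit, and members of the other lists past 1.5-fold. Members of the list and the other gene lists were chosen with earlier results of these data known. The pairs of mitochondrial genes were chosen after seeing the data. Protein sequences were not used here.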

Additional observations from a re-analysis of the deposited data

Results flagged for a closer look

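The nuclear-encoded subunit share moved in opposite directions in 2 types, at 1.44 times the uninjured value in OPCs and 0.977 times in oligodendrocytes. Whether these differ was not tested, since each condition had 1 library, and the OPC value rested on 17 injured barcodes.

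Atp5o, a subunit of the ATP synthase stalk, had a ratio of 1.51 in OPCs and 0.649 in NFOs. The difference was not tested, both counting intervals held 1, and the gene shares part of its 3′ end with another annotated gene.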

How the results depend on the processing

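No paired analysis was possible because each condition had 1 library. Over all alternatives 58 values stayed within their counting interval or within 1.5 times their count, 55 moved and 7 whose own interval had excluded 1 turned direction, and the cause was not tested. The NFO nuclear-encoded ratio, whose interval held 1, also fell on the other side of 1 in 4 alternatives (0.996 without doublets and the 3 other scalings given below). Chosen after seeing the data were the alternatives by depth band, by Malat1 under 0.5%, by macrophage markers, for OPC shares, for NFO over oligodendrocyte and for mt-Nd3 per mt-Nd4l.

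The oligodendrocyte mitochondrially encoded ratio (0.552) was 0.777 as a mean over barcodes, 0.543 with at least 500 genes, 0.540 with at least 0.5% Malat1 and 0.559 with less, 0.547 without the deepest barcodes, 0.566 at no more than 10% mitochondrial UMIs, 0.518 under 0.1% macrophage markers, 0.515 over UMIs outside the 50 most abundant genes and 0.534 over the median of all genes. It turned to 1.20 at 1000 to 8000 UMIs. By depth band, shallow to deep, it was 0.791, 0.919, 1.31, 1.24, 0.757 and 0.522.

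The oligodendrocyte nuclear-encoded ratio (0.977) turned to 1.21 as a mean over barcodes, and was 0.916 at 1000 to 8000 UMIs, 0.714 under 0.5% Malat1, 0.910 outside the 50 most abundant genes, 0.945 over the median of all genes and 0.944 without mitochondrial UMIs. By band it was 1.96, 1.62, 1.19, 0.575, 0.735 and 0.823. The count past 1.5-fold (1) was 18 at 1000 to 8000 UMIs, 16 under 0.5% Malat1, 5 outside the 50 most abundant genes, and 2 over the median, without mitochondrial UMIs or with no filter on UMIs.

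The NFO mitochondrially encoded ratio (0.402) was 0.512 at 1000 to 8000 UMIs, 0.532 at no more than 10% mitochondrial UMIs, 0.375 under 0.1% macrophage markers, 0.382 outside the 50 most abundant genes and 0.350 over the median. The NFO nuclear-encoded ratio (1.03) was 1.29 at 1000 to 8000 UMIs, 1.12 without the deepest barcodes, 0.980 outside the 50 most abundant genes, 0.898 over the median and 0.976 without mitochondrial UMIs. The NFO count (6, with 2 higher and 4 lower) was 14 at 1000 to 8000 UMIs (14 higher, 0 lower) and on either side of 0.5% Malat1 (9 higher, 5 lower), 13 without the deepest barcodes, 10 over the median and 1 with at least 200 UMIs.

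The OPC nuclear-encoded ratio (1.44) was 1.16 at 1000 to 8000 UMIs and 1.34 with at least 0.5% Malat1. Nuclear-encoded subunits seen per barcode, thinned to 500 UMIs, were 4.5 and 8 in OPCs, 12 and 13 in NFOs and 5 and 6 in oligodendrocytes. NFO over oligodendrocyte at 1000 to 8000 UMIs was 1.06 and 0.453 for the mitochondrially encoded and 2.10 and 2.96 for the nuclear-encoded share. The ratio of mt-Nd3 per mt-Nd4l, injured over uninjured, kept to 0.0981 to 0.167 in oligodendrocytes, 0.0975 to 0.122 in NFOs and 0.124 to 0.169 in OPCs over the settings tried. Injured OPCs rested on 17 barcodes.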
